A study of Homo sapiens with 48 samples.

Results

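Passage from G1 into S phase is set by D-type cyclins, which bind and activate the kinases CDK4 and CDK6. It is also set by inhibitor proteins of the CIP/KIP and INK4 families, which restrain cyclin-dependent kinases (CDKs). The complexes of cyclin and kinase phosphorylate the retinoblastoma protein RB1 and its relatives, which then release E2F transcription factors. D cyclin genes are classical targets of growth factor signalling through ERK1/2, and inhibitor genes integrate growth arrest, differentiation and p53 signals. The 10 genes described here were taken by name from a count table of 60610 genes: the D cyclins CCND1, CCND2 and CCND3, the kinase genes CDK4 and CDK6, the CIP/KIP inhibitors CDKN1A (p21), CDKN1B (p27) and CDKN1C (p57), and the INK4 inhibitors CDKN2C (p18) and CDKN2D (p19). All 10 passed the filter on low counts, as did 19626 genes in all.

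The cells were AT1R-HEK293, a human embryonic kidney line transformed with adenovirus DNA and carrying a stably transfected receptor for angiotensin II (AII), selected with puromycin and grown from 1 clone. Viral proteins in this line bind RB proteins and p53, which limits it as a model of G1 control. In serum-free medium the cells received nothing (control), 1 nM AII, 10 µg/L EGF or AII + EGF, for 6 h or for 24 h, with 6 labelled libraries in each of these 8 groups. No label ties a library to a separate culture, so p-values measure the spread between libraries, which may be technical. Of the 48 libraries, 38 were used, with 17.8 to 30 M counts each (median 21.7 M). The EGF 6 h libraries were the deepest, with a mean of 28.8 M counts against 20.7 to 23.3 M in the other groups. Left out were 8 libraries that form 4 near-identical pairs, with a chi-square per degree of freedom of 0.397 to 0.505 over genes of at least 100 counts, against 2.02 or more in all other pairs. Both members of a pair thus differed by less than the sampling noise, and 3 of the pairs join libraries of different labelled groups (control 6 h with EGF 24 h, EGF 6 h with AII + EGF 6 h, and control 6 h with AII 24 h), so that at least 1 label of each of these is in doubt. Values given below for all 48 libraries rest on these labels as well. A further 2 were left out because their labels are in doubt. On a scale from AII (0) to AII + EGF (1) over 1492 genes, a value of 0.86 was found for the library labelled AII 6 h replicate 6 and of −0.01 for the one labelled AII + EGF 6 h replicate 6. This left 4 control, 5 AII, 3 EGF and 4 AII + EGF libraries at 6 h, and 6, 5, 5 and 6 at 24 h. Among those kept, the closest pairs by chi-square were AII 6 h replicates 1 and 2 (2.02) and EGF 6 h replicates 3 and 4 (3.32). The spread of these groups may be understated for this reason. The HEK293 genes NEFL, NEFM, VIM, KRT8 and KRT18 were present in every library at 18.1 CPM or more, INA at 2.9 CPM or more and PAX2 at 0.274 CPM or more. Among 7 markers of other cell types, 6 stayed at or below 1.52 CPM, whereas COL1A1 had 11.1 to 44.7 CPM.

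Levels are given as CPM, the counts of a gene scaled to a common library total with TMM factors. Per kb of exon, the kinase gene CDK4 and the inhibitor CDKN1A stood highest in control cells at 6 h, with 53.1 and 47.6 CPM per kb, followed by CDKN2C with 40 and CCND1 with 21.6 CPM per kb. CDKN1B followed at 9.89, CCND2 at 7.69, CDK6 at 6.59, CCND3 at 5.87, CDKN2D at 4.96 and CDKN1C at 2.33 CPM per kb. CDK4 thus stood above CDK6, and CCND1 above the other D cyclins, on this per-length scale. Exon length is the union of all annotated exons of a gene, which can exceed the length of its mRNA. For CDKN1B it was 9.26 kb, although its RefSeq gene runs only from 12717368 to 12722369. Its place in this order, like that of the others, therefore depends on the lengths used. The lowest single value of the family was 3.81 CPM, for CDKN1C in AII + EGF 6 h replicate 1. The plot of levels by library shows all values.

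**Figure D1:**
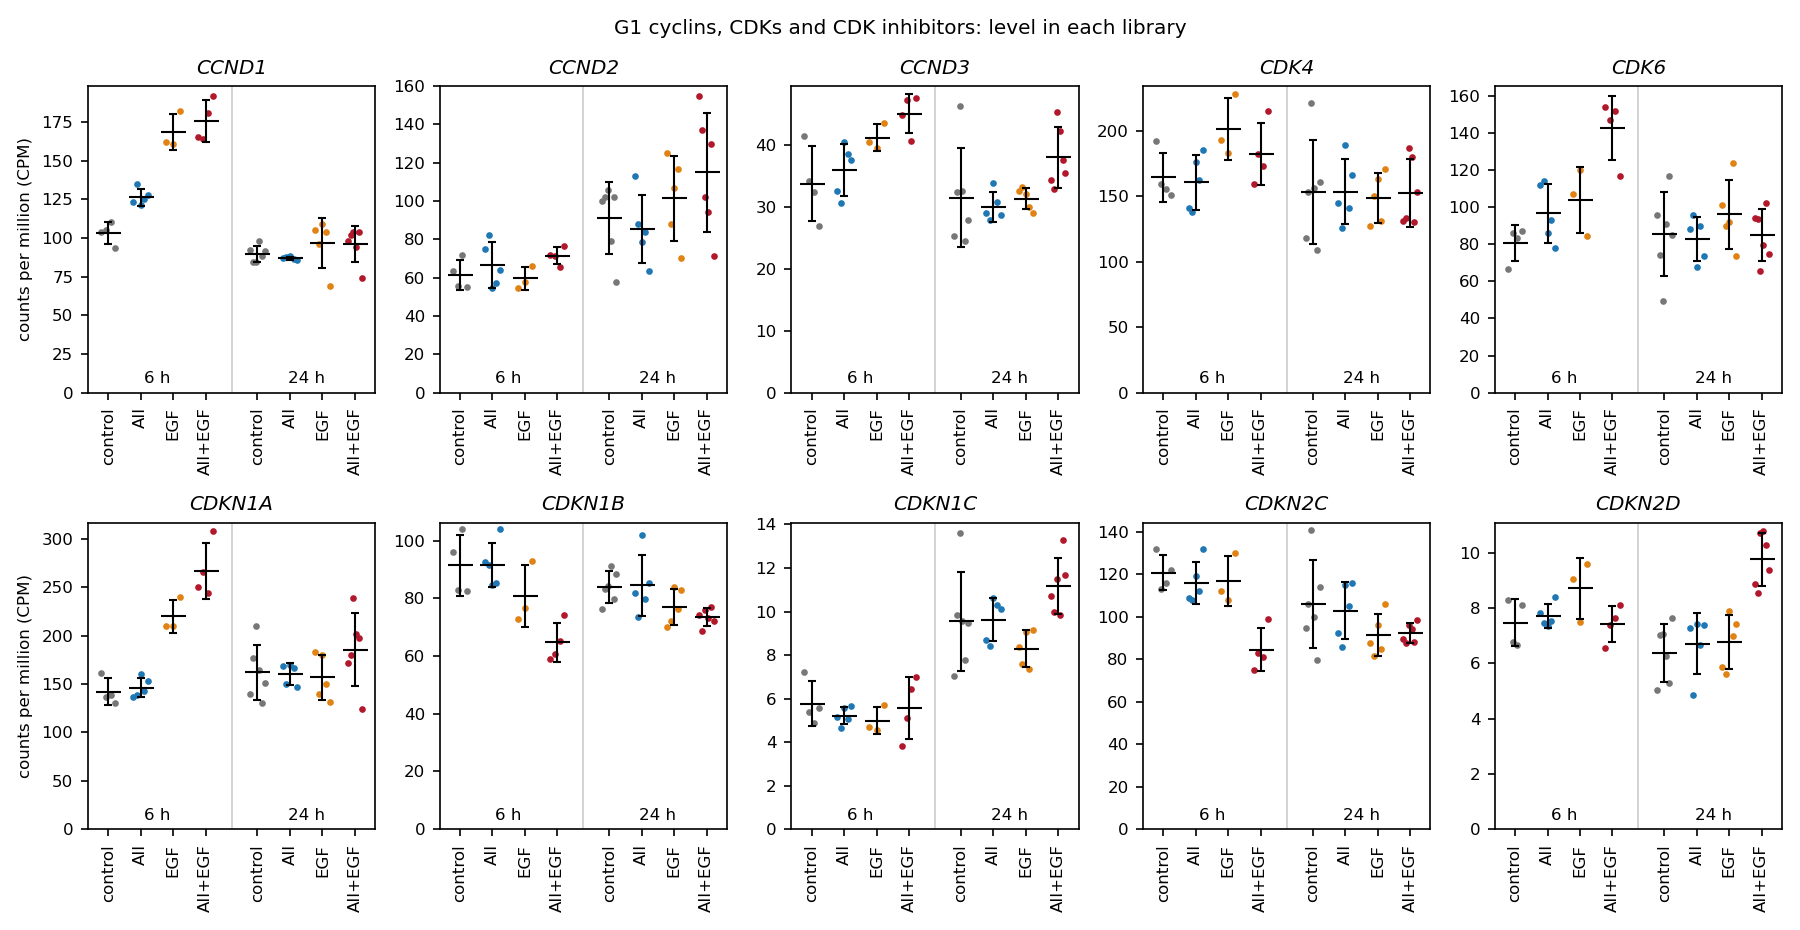
Level of each of the 10 genes in CPM (vertical axis, starting at 0) in the 38 libraries, by treatment (horizontal axis) at 6 h (left of the grey line) and 24 h (right). Points are libraries, and black lines show mean ± SD. CCND1 and CDKN1A were high under EGF and AII + EGF at 6 h, CDK6 was high and CDKN1B and CDKN2C were low under AII + EGF at 6 h, and CDKN2D was high under AII + EGF at 24 h.

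The first question was which of these genes each stimulus changed at 6 h. EGF raised CCND1 and CDKN1A, and AII + EGF raised both together with CDK6, while CDKN1B and CDKN2C fell under AII + EGF. The activator CCND1 and the inhibitor CDKN1A thus rose together, and the inhibitors moved in opposite directions. To be called, a gene needed p under 0.01 in edgeR's quasi-likelihood test after Benjamini-Hochberg adjustment, a 1.5-fold change or more, and over 5 CPM on average in the higher group. Changes are log2 ± SE from that test. The 3 stimuli were compared with the same 4 control libraries, so their values are given side by side and are not independent.

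Under AII 0 of the 10 genes were called, where 0.469% of all genes tested were. Under EGF 2 of 10 were called, against 1.94% of all genes. Under AII + EGF 3 of 10 were called, all of them higher, against 12% of all genes in either direction and 6.45% in the higher direction. With library totals in place of TMM factors, which lowered the median change of all genes by 0.10 (log2), 4 of 10 were called, CCND1 and CDKN1A higher and CDKN1B and CDKN2C lower. The share of higher genes among all calls was then 39%, against 53.8% with TMM factors, and under EGF it was 67.2% against 83.5%. With TMM factors another 2 of 10 passed the adjusted p by falling less than 1.5-fold, where 11% of all genes passed with a fall. DESeq2 called 0, 2 and 3 of the 10 in the same order. For AII, edgeR's unadjusted p was under 0.05 for 1 gene, CCND1. No share of all genes is given at that unadjusted threshold, here or below, so such counts only describe the members.

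CCND1 encodes cyclin D1, the D cyclin most closely tied to growth factor signalling. In control cells at 6 h its level was 104, 105, 110 and 93.3 CPM. It was 162, 161 and 182 CPM under EGF, and 165, 164, 181 and 192 CPM under AII + EGF. Every library with EGF therefore lay above every control library. In bulk RNA, a change per cell and a change in the share of cells that express a gene cannot be told apart. The change was 0.71 ± 0.11 (1.64-fold) under EGF and 0.77 ± 0.10 (1.7-fold) under AII + EGF, with adjusted p 1.96e-05 and 1.59e-07 in edgeR's quasi-likelihood test. Under AII alone the level was 123, 135, 121, 125 and 128 CPM, which did not overlap control, but the change of 0.29 ± 0.10 gave an adjusted p of 0.125 (edgeR) and did not pass. AII + EGF exceeded AII by 0.48 ± 0.10 (adjusted p 0.000226, edgeR) and differed from EGF by 0.06 ± 0.11 (adjusted p 0.804, 95% interval −0.16 to 0.28).

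The other D cyclins did not pass. CCND3 had 41.5, 34.3, 32.5 and 26.9 CPM in control and 44.9, 47.3, 40.7 and 47.7 CPM under AII + EGF at 6 h, ranges that overlap slightly. Its change was 0.42 ± 0.14 with an adjusted p of 0.0169 (edgeR), and with library totals it was 0.33 with an adjusted p of 0.00908. CCND2 had a group mean of 59.6 to 71.4 CPM at 6 h and changed by at most 0.22 ± 0.19, under AII + EGF. The make-up of the D cyclin mRNA, in CPM per kb, moved with CCND1. The size of each share depends on the exon lengths, which were the same for all groups. The CCND1 share was 61.5% ± 1.87 (SD, n = 4) in control, 70.7% ± 0.185 (n = 3) under EGF and 68.7% ± 2.08 (n = 4) under AII + EGF. The EGF libraries (70.6% to 71%) and the AII + EGF libraries (66.8% to 71.3%) lay above the control libraries (59% to 63%). Under AII alone the share was 64.5% ± 0.884 (n = 5), and its libraries (63.1% to 65.4%) also lay above control and below the other stimuli.

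**Figure D2:**
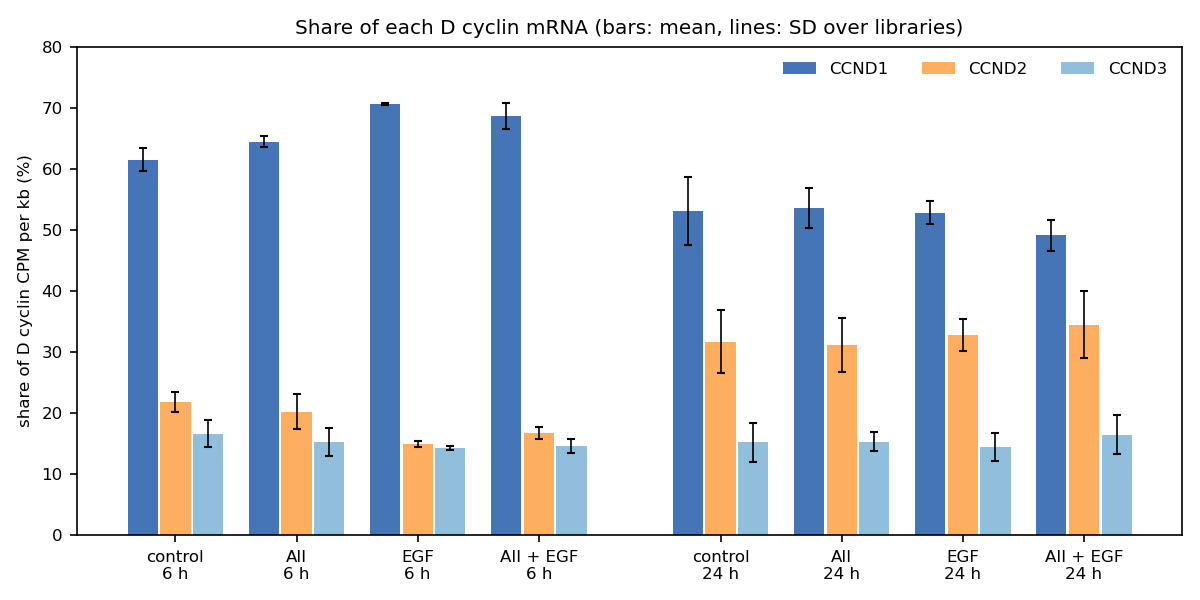
Share of CCND1, CCND2 and CCND3 in the summed D cyclin level, each in CPM per kb of exon (vertical axis, percent), in the 8 groups (horizontal axis). Bars are means over libraries and lines are SD. At 6 h the CCND1 share was 61.5% in control and 70.7% under EGF, and in control at 24 h it was 53.1% with CCND2 at 31.7%.

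Of the 2 kinase genes, CDK6 rose under AII + EGF. It had 66.5, 86, 83.1 and 87 CPM in control and 154, 147, 152 and 117 CPM under AII + EGF at 6 h. The groups did not overlap, and the change was 0.82 ± 0.18 (1.76-fold, adjusted p 0.000375, edgeR). With library totals in place of TMM factors it was 0.71 with an adjusted p of 0.0107 and no longer passed. Under EGF CDK6 reached 107, 120 and 84.5 CPM, with 1 library inside the control range (0.36 ± 0.19, adjusted p 0.317, edgeR). AII + EGF differed from AII by 0.56 ± 0.17 with an adjusted p of 0.0103 (edgeR), just short of the threshold, while DESeq2 passed it. CDK4 ranged from 151 to 192 CPM in control and from 159 to 215 CPM under AII + EGF (0.15 ± 0.16, adjusted p 0.512, edgeR).

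CDKN1A encodes p21, a CDK inhibitor and the best known transcriptional target of p53. Its level at 6 h was 162, 137, 139 and 131 CPM in control, 210, 210 and 240 CPM under EGF and 251, 266, 244 and 308 CPM under AII + EGF. All libraries with EGF lay above control, and all AII + EGF libraries lay above all EGF libraries. The change was 0.63 ± 0.15 (1.54-fold, adjusted p 0.00526) under EGF and 0.91 ± 0.14 (1.87-fold, adjusted p 2.1e-06) under AII + EGF in edgeR's quasi-likelihood test. The EGF call rested on few libraries. It passed in 1 of 7 fits that left out 1 library, and failed without control replicate 4, 5 or 6 (adjusted p 0.0172, 0.0168 and 0.0325) or EGF replicate 3, 4 or 5 (0.0154, 0.015 and 0.0521). Under AII alone CDKN1A had 137, 139, 160, 143 and 153 CPM, within 0.04 ± 0.13 of control, and AII + EGF exceeded AII by 0.87 ± 0.13 (adjusted p 2.4e-06, edgeR). The difference between AII + EGF and EGF, 0.28 ± 0.15, had an adjusted p of 0.257 (edgeR).

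CDKN1B encodes p27, the inhibitor that accumulates in quiescent cells and is controlled largely through protein turnover. It had 96, 83, 104 and 82.7 CPM in control and 58.9, 60.8, 65.1 and 74.2 CPM under AII + EGF at 6 h. The groups did not overlap, and it fell by 0.50 ± 0.10 on the log2 scale (adjusted p 9.9e-05, edgeR). CDKN2C, the INK4 inhibitor p18, fell in the same libraries by 0.51 ± 0.12 (adjusted p 0.000843, edgeR), from 132, 113, 116 and 122 CPM to 75.1, 83.1, 80.9 and 99 CPM. Without AII + EGF replicate 5 the fall of CDKN2C was 0.60 and met the 1.5-fold minimum. Neither gene passed under EGF or AII alone. Under EGF, CDKN1B had 72.7, 76.7 and 92.9 CPM (−0.18 ± 0.11) and CDKN2C had 112, 108 and 130 CPM (−0.05 ± 0.13). AII + EGF lay below AII for both (CDKN1B −0.50 ± 0.09, adjusted p 7.35e-05, and CDKN2C −0.46 ± 0.11, adjusted p 0.00248, edgeR). The CDKN2C difference from AII failed without AII + EGF replicate 1 (0.0161) or 3 (0.0113) or AII replicate 5 (0.0111). Against EGF the adjusted p was 0.044 for CDKN1B and 0.0141 for CDKN2C (edgeR).

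The remaining inhibitors did not pass at 6 h. CDKN1C (p57) had group means of 4.98 to 5.77 CPM and CDKN2D (p19) of 7.42 to 8.71 CPM, each with overlap between control and every stimulus.

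**Figure D3:**
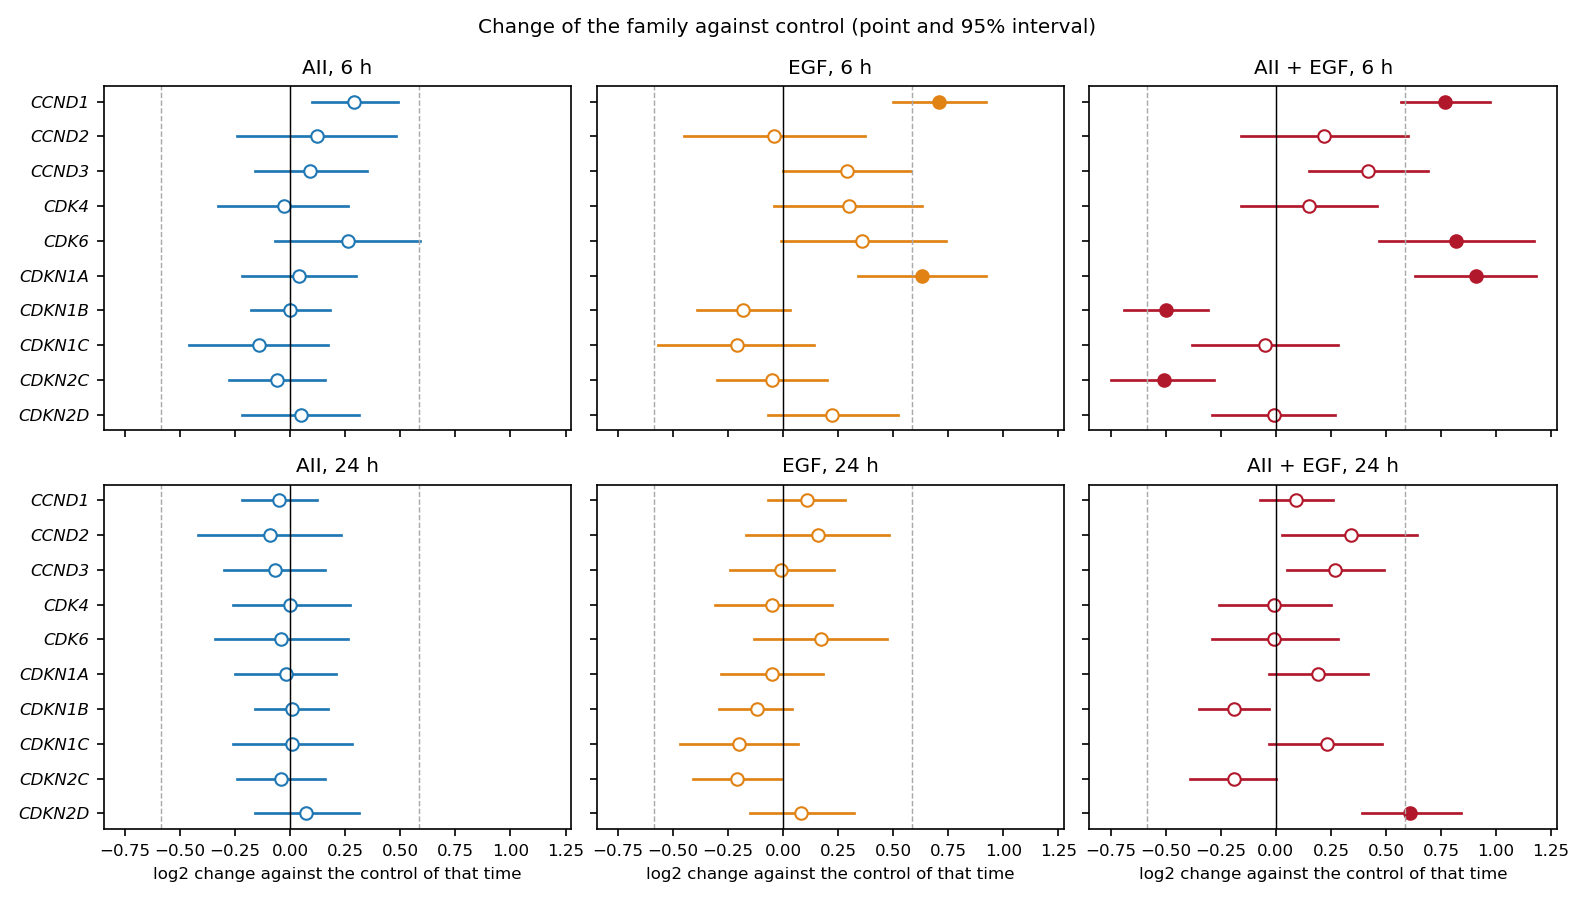
Change of the 10 genes (rows) against the control of the same time, as log2 (horizontal axis) with its 95% interval, for AII, EGF and AII + EGF (columns) at 6 h (top) and 24 h (bottom). Filled points passed an adjusted p under 0.01, and dashed lines mark 1.5-fold. At 6 h 0 genes were filled under AII, 2 under EGF and 5 under AII + EGF, and at 24 h 1 was, CDKN2D under AII + EGF.

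AII + EGF was also compared directly with each single stimulus at 6 h. Against EGF 0 of the 10 genes were called, where 2.92% of all genes were. There edgeR's unadjusted p was under 0.05 for 3 of them (CDK6, CDKN1B and CDKN2C), and DESeq2 passed 1, CDKN2C, without a call. Against AII 1 of 10 was called, CDKN1A, where 7.6% of all genes were. The interaction of both stimuli on the log scale, which compares AII + EGF with the product of the single effects, was called for 0 of 10 genes at 6 h (background 0.229%). Its unadjusted p was under 0.05 for CDKN1B (−0.32 ± 0.14) and CDKN2C (−0.41 ± 0.17), with adjusted p 0.406 and 0.38 (edgeR), and DESeq2 called 0. On a linear scale, the excess of AII + EGF over the sum of the single changes was 43.2 ± 19.4 CPM (SE) for CDKN1A and −27.4 ± 10.6 CPM for CDKN2C, given without a test. For CDKN1A it was 12.1 ± 29.8 CPM when all 48 libraries were kept. For CCND1 it was −16.2 ± 10.6 CPM.

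The sample titles are numbered in series that each hold the 4 treatments, here called title runs, which the labels do not call batches. Among the 38 libraries used, only runs 4 and 5 hold both treated and control libraries of 6 h, of which run 5 holds 1 of each. Within runs 4 and 5 the AII + EGF change in log2 was 0.80 and 0.80 for CCND1, 0.71 and 1.15 for CDKN1A, 1.00 and 0.49 for CDK6, −0.46 and −0.49 for CDKN1B and −0.59 and −0.23 for CDKN2C. All 5 genes kept their direction in both runs. These libraries are part of those by which the 5 genes had passed, so this is no independent check. The EGF change was 0.63 and 0.72 for CCND1 and 0.49 and 0.79 for CDKN1A.

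With all 48 libraries kept under their labels, the AII + EGF changes at 6 h were smaller, at 0.68 for CCND1, 0.65 for CDK6, 0.66 for CDKN1A, −0.36 for CDKN1B and −0.37 for CDKN2C. All 5 still passed (adjusted p 0.00341 or less, edgeR). Under EGF the changes were then 0.63 for CCND1 (adjusted p 1.62e-05) and 0.53 for CDKN1A (adjusted p 0.00805, edgeR), the latter under 1.5-fold. The contrast of AII + EGF with AII holds the 2 libraries of doubtful label, and CCND1 (0.30, adjusted p 0.0325) and CDKN2C (−0.31, adjusted p 0.0428) did not pass there with all 48.

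Since CDKN1A and CDKN1B are both CIP/KIP genes and moved apart under AII + EGF, their promoters are shown. Each runs from 250 bases before to 50 bases after a start in RefSeq (GRCh38.p14), 5′ to 3′ on the plus strand, at chr6:36678464-36678763 for CDKN1A and chr12:12717118-12717417 for CDKN1B. The start used for CDKN1A lies inside its RefSeq gene, which begins at 36676463, and the sequence around that first position was not searched. Capitals mark GGGCGG, the core of SP1 sites.
CDKN1A: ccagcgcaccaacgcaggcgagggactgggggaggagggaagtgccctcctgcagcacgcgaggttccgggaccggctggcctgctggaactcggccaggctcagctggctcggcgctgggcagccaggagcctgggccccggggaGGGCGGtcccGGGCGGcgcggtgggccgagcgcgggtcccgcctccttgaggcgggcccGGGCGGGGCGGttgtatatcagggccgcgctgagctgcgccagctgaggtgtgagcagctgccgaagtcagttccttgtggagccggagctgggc
CDKN1B: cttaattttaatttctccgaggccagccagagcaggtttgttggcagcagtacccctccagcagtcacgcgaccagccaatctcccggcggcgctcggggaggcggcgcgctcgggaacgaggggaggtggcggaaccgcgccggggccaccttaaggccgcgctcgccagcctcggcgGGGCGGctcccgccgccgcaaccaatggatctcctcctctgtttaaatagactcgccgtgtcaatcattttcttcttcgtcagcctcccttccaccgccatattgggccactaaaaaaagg
The search covered both strands for SP1 (GGGCGG), EGR (GCGNGGGCG, which can overlap the SP1 letters), AP-1 (TGANTCA), CRE (TGACGTCA), E2F (TTTNNCGC), FOXO (GTAAACA), ETS (CCGGAAGT) and the CArG box bound by SRF. CDKN1A held 4 SP1 matches, from −104, −94, −45 and −40 relative to the start, of which the last 2 share 1 base, and CDKN1B held 1, from −71. Neither window held a match to the other 7 motifs. Of 35116 promoter windows, 45% held the SP1 letters, 9.43% EGR, 7.71% AP-1, 1.85% CRE, 6.89% E2F, 3.42% FOXO, 4.14% ETS and 1.29% a CArG box. In all, 12 windows of 7 members were searched, and CCND1, CCND2 and CDKN1C had no window. CDKN2C, which fell with CDKN1B, held 6 SP1 matches in 1 window and 1 in another. CDK4 and CDKN2D held 3 SP1 matches each, CDK6 held 3 in 1 window, and CCND3 held 4 and 5 in 2 windows. EGR was found in 1 window each of CDK6 and CDKN2C and in 2 of CCND3, FOXO in 1 of CCND3 and E2F in that of CDKN2D. These matches describe letters only.

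The rise of CDKN1A was set beside 12 other known p53 target genes. Under AII + EGF at 6 h, 1 of the 12 passed with a rise and 6 passed with a fall, where 12.4% of all genes passed with a rise and 11% with a fall. Their median log2 change was −0.38, against −0.032 for all genes tested. BBC3 (PUMA), an apoptosis gene, fell by 1.05 ± 0.18 on the log2 scale, from a mean of 69.6 to 33.7 CPM. PHLDA3, an inhibitor of AKT signalling, fell by 1.03 ± 0.16, and the death receptor gene FAS by 0.86 ± 0.12. Adjusted p-values were 1.01e-05, 1.67e-06 and 3.69e-07 in edgeR's test. GADD45A, a stress response gene named after its value was seen, was the rise, at 0.63 ± 0.12 (adjusted p 0.00012, edgeR). Under EGF and under AII 0 of the 12 passed at 6 h, where 3.37% and 0.922% of all genes did. CDKN1A therefore moved against most of the listed genes that passed.

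**Figure D4:**
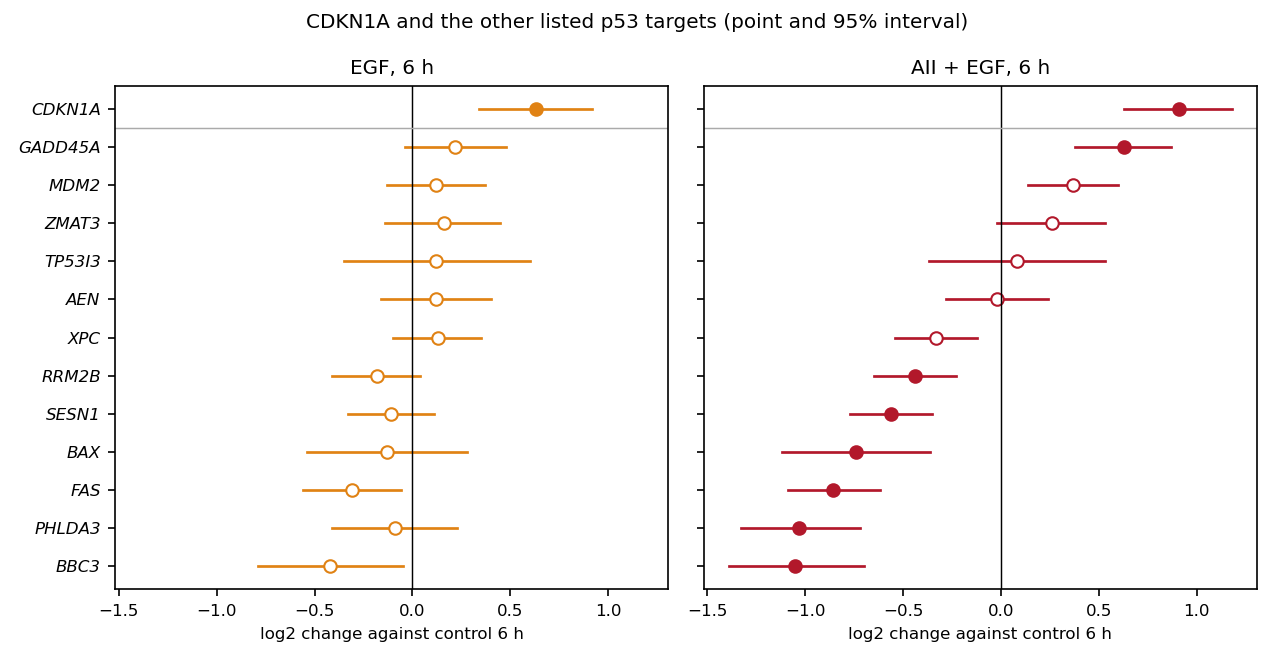
Change of CDKN1A (top row) and 12 other p53 target genes against control at 6 h, as log2 with the 95% interval (horizontal axis), under EGF (left) and AII + EGF (right). Filled points passed an adjusted p under 0.01. Under AII + EGF, CDKN1A (0.91) and GADD45A (0.63) passed with a rise and 6 genes passed with a fall.

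Other genes of the G1 pathway were taken from 5 lists and are given for AII + EGF at 6 h, where the median change of all genes tested was −0.032 and 23.4% of them passed in either direction. The counts of the 5 lists lie near or below that share. Of 13 genes for pocket proteins and E2F factors, 2 passed with a rise and 2 with a fall (median 0.19). The largest was RBL2, which encodes the pocket protein p130 typical of quiescent cells and fell by 1.18 ± 0.15, from a mean of 55.7 to 24.5 CPM (adjusted p 5.99e-08, edgeR). Of 8 genes for cyclins E and A, CDK2 and its activators, 2 passed with a rise and 0 with a fall (median 0.20), and CCNE2, a cyclin E gene, rose by 0.72 ± 0.18 (adjusted p 0.00141, edgeR). Of 12 genes for the turnover of D cyclins and inhibitors, 1 passed with a rise (median 0.09). Of the other CDK inhibitors CDKN2A, CDKN2B and CDKN3, 0 passed (median −0.13). Of 8 proliferation genes, 0 passed with a rise and 1 with a fall (median 0.14). Under AII, 1 gene of the first list passed with a rise and 0 of the other 4 lists, and under EGF 0 genes of the 5 lists passed, with the shares of all genes given above. Of 7 HEK293 genes, INA (1.71 ± 0.16), NEFM (1.32 ± 0.24) and KRT18 (0.97 ± 0.24) were called with a rise under AII + EGF, and INA (1.04 ± 0.17) under EGF. The rest did not move one way. From control to AII + EGF at 6 h, mean levels went from 795 to 653 CPM for NEFL and from 280 to 190 CPM for VIM. They went from 34 to 62.6 CPM for KRT8 and from 0.505 to 2.96 CPM for PAX2. Their part in the changes of the cell cycle genes was not tested.

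At 24 h the question was whether these changes lasted. They did not pass at that time, which alone does not show that a change had ended, and 1 other inhibitor gene did. Under AII 0 of 10 genes were called, as were 0% of all genes. No member had an unadjusted p under 0.05 there, and the 95% intervals of the 10 changes lay between −0.42 and 0.31. Under EGF 0 of 10 were called (background 0.245%), with 1 unadjusted p under 0.05 (CDKN2C, −0.21 ± 0.10). DESeq2 called 0 under AII and 0 under EGF. Under AII + EGF 1 of 10 was called (background 2.9%), CDKN2D. The 3 stimuli again share their control libraries, 6 at 24 h.

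CDKN2D, an INK4 inhibitor of CDK4 and CDK6, was a low gene at 5.02, 6.65 and 7.63 CPM (lowest, median and highest) in control at 24 h. Under AII + EGF it had 8.54, 9.84 and 10.8 CPM. The AII libraries had 7.27, 4.84, 7.43, 6.67 and 7.38 CPM and the EGF libraries 5.88, 5.63, 7.88, 6.98 and 7.44 CPM, so all AII + EGF libraries lay above all others of that time. The change against control was 0.61 ± 0.11 (1.53-fold, adjusted p 0.000163, edgeR), just past the fold minimum. It passed in all 12 fits without 1 library, but was under 1.5-fold without control replicate 1 or 5 (0.55 and 0.57) or AII + EGF replicate 3 or 4 (0.58 each). Within title runs 2, 3, 6 and 8 it was 0.54, 0.69, 0.95 and 0.29, and with all 48 libraries it was 0.62.

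Against the single stimuli at 24 h, 0 of 10 genes were called for AII + EGF over EGF (background 0.0917%) and 0 of 10 over AII (background 1.45%). CDKN2D exceeded AII by 0.54 ± 0.12 (adjusted p 0.00271, edgeR) with less than 1.5-fold, and EGF by 0.53 ± 0.12 with an adjusted p of 0.0269. The first of these failed without AII replicate 2 (0.0155) or AII + EGF replicate 3 (0.0101). Unadjusted p-values were under 0.05 for 4 of the 10 in each of these comparisons, with no share of all genes to set beside them. DESeq2 passed CDKN2D in both. The interaction at 24 h was called for 0 of 10 genes, as for 0% of all genes. Its unadjusted p was under 0.05 for CCND3 (0.35 ± 0.17), CDKN1C (0.42 ± 0.20) and CDKN2D (0.46 ± 0.17), and DESeq2 called 0. The adjusted p of each was 0.998 (edgeR). On a linear scale the excess was 8.15 ± 4.05 CPM (SE) for CCND3, 2.8 ± 1.22 CPM for CDKN1C and 2.67 ± 0.878 CPM for CDKN2D, given without a test. In CDKN1C every AII + EGF library (9.83 CPM or more) lay above every EGF library (9.15 CPM or less), and the difference of 0.43 ± 0.14 had an adjusted p of 0.172 (edgeR).

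The genes that rose at 6 h did not pass against control at 24 h. CCND1 had 84.5, 90.1 and 98 CPM (lowest, median and highest) in control and 73.8, 99.8 and 104 CPM under AII + EGF, and CDKN1A had 131, 158 and 210 against 124, 189 and 239 CPM. Both pairs of groups overlap. CDK6 had 49.2, 87.9 and 117 CPM in control and 65.6, 86.5 and 102 CPM under AII + EGF. CDKN1B, at 76.4, 83.8 and 91.2 against 68.8, 73.7 and 77 CPM, differed by −0.19 ± 0.08 (adjusted p 0.0873, edgeR), and CDKN2C by −0.19 ± 0.10 (adjusted p 0.163). CCND2 and CCND3 differed by 0.34 ± 0.16 and 0.27 ± 0.11, with adjusted p 0.133 and 0.0839 (edgeR).

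The difference between the responses at 24 h and at 6 h was tested directly. For AII + EGF it was called for 4 of 10 genes, where 11.6% of all genes were. CCND1 (−0.68 ± 0.13, adjusted p 0.000161), CDK6 (−0.83 ± 0.23, adjusted p 0.00619) and CDKN1A (−0.71 ± 0.18, adjusted p 0.00253) responded less at 24 h, and CDKN2D responded more (0.62 ± 0.18, adjusted p 0.00945), all in edgeR's quasi-likelihood test. For CDKN1B (0.31 ± 0.13, adjusted p 0.0684) and CDKN2C (0.32 ± 0.15, adjusted p 0.131, edgeR) the difference did not pass. Whether their falls of 6 h had ended by 24 h is therefore not settled. In fits without 1 library, CCND1 and CDKN1A passed whichever was left out. With all 48 libraries CCND1 (−0.59) and CDKN2D (0.57) passed, and CDK6 (−0.66, adjusted p 0.0139) and CDKN1A (−0.46, adjusted p 0.0805) did not. CDK6 and CDKN2D each passed in 9 of 20 fits without 1 library. CDK6 failed without AII + EGF 6 h replicate 1, 2 or 3, control 6 h replicate 3, control 24 h replicate 1, 4, 5 or 6 or AII + EGF 24 h replicate 3, 4 or 6 (adjusted p 0.0102 to 0.0206). CDKN2D failed without AII + EGF 6 h replicate 1, 2 or 3, control 6 h replicate 3 or 6, control 24 h replicate 1, 4 or 5 or AII + EGF 24 h replicate 3, 4 or 5 (adjusted p 0.0139 to 0.0279).

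For EGF the difference between times was called for 1 of 10 genes, CCND1 at −0.60 ± 0.14 (adjusted p 0.00946, edgeR), where 1.03% of all genes were. It passed in 5 of 18 fits without 1 library, and failed without any of the 4 control and 3 EGF libraries of 6 h, control 24 h replicate 1, 4, 5 or 6 or EGF 24 h replicate 3 or 6 (adjusted p 0.0101 to 0.0552). With all 48 libraries it was −0.53 with an adjusted p of 0.013. CDKN1A differed by −0.68 ± 0.19 with an adjusted p of 0.0368. For AII 0 of 10 were called (background 0.138%), with CCND1 (−0.34 ± 0.13) alone at an unadjusted p under 0.05 and 0 calls in DESeq2.

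**Figure D5:**
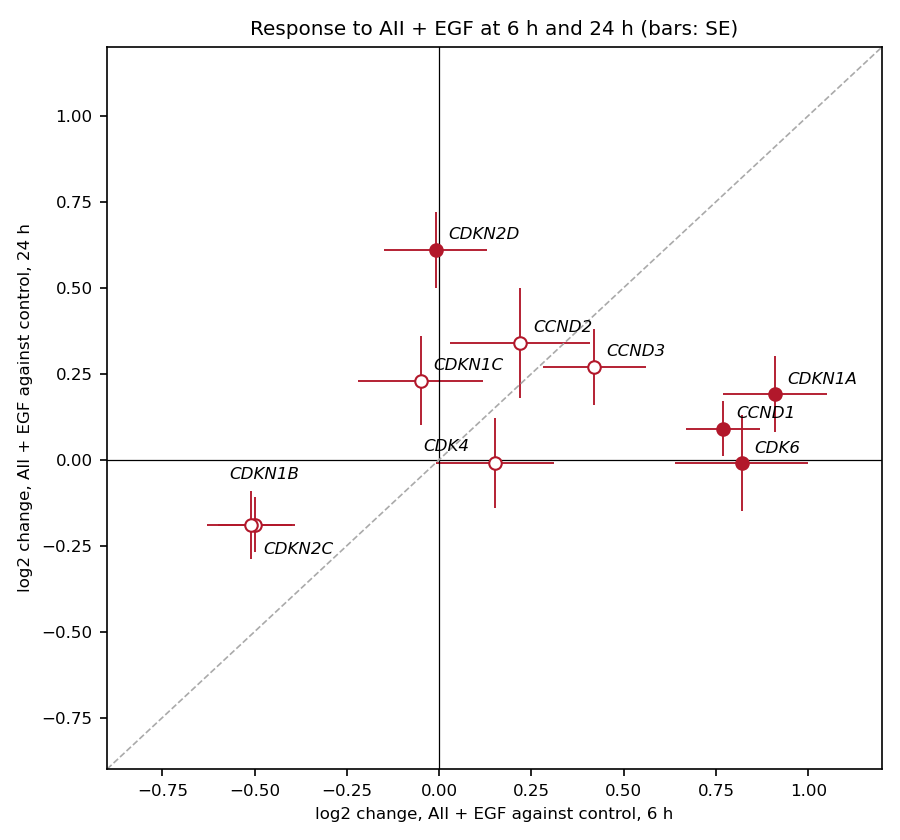
Response to AII + EGF at 6 h (horizontal axis) and 24 h (vertical axis), each as log2 change against the control of its time, for the 10 genes with SE bars. Filled points passed the test of the difference between times, and the dashed line marks equal responses. CCND1, CDK6 and CDKN1A lie at the right, at 0.09, −0.01 and 0.19 on the vertical axis. CDKN2D lies at 0.61 on the vertical axis and −0.01 on the horizontal.

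In unstimulated cells, 1 of 10 genes differed between 24 h and 6 h, where 6.73% of all genes were called. CDKN1C, an imprinted CDK inhibitor gene, had 7.24, 5.38, 4.89 and 5.57 CPM at the earlier time and 7.02, 9.52 and 13.6 CPM (lowest, median and highest) at the later one, a rise of 0.73 ± 0.15 (1.65-fold, adjusted p 0.000408, edgeR). The groups overlapped in 1 library each, and with all 48 libraries the rise was 0.61 (adjusted p 0.00272). In a fit of these 2 groups alone it was 0.75 and did not pass (adjusted p 0.0137). The 6 h values of CCND2 were 63.3, 55.7, 71.8 and 55.1 CPM, and those of 24 h were 57.9, 101 and 106 CPM as lowest, median and highest of 6 libraries (0.57 ± 0.18, adjusted p 0.0134, edgeR), which DESeq2 passed. Its share of the D cyclin mRNA was 21.8% ± 1.57 (SD, n = 4) at 6 h and 31.7% ± 5.21 (n = 6) at 24 h. The lowest CCND2 library in control, AII and EGF at 24 h was replicate 6 of that group, with 57.9, 63.7 and 70.2 CPM, as it was under AII + EGF with 71.5 CPM. These 4 libraries make up title run 8. The times share no title run, so time and run cannot be told apart. Among the markers of other cell types, the collagen gene COL1A1 also rose from 6 h to 24 h (1.04 ± 0.20, adjusted p 0.000108, edgeR), and its part in these differences was not tested.

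As a description of likeness, the genes whose log2 CPM followed CCND1 most closely over the 38 libraries, among 11754 with a mean above 5 CPM, were TNFRSF10D (Pearson's r 0.956), KPNB1 (0.948) and NOLC1 (0.948). For CDKN1A they were MAP7D1 (0.918), HCN2 (0.907) and QSOX1 (0.904), and for CDKN1B they were FZD1 (0.869), PRSS23 (0.848) and RRAGC (0.846). The libraries share treatments and title runs, which enter these values.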

How the data were processed

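The authors sequenced poly(A) RNA as paired reads, aligned them to hg38 with HISAT2 2.1.0 and counted fragments per Ensembl gene with featureCounts. The deposited values are raw counts per gene, without normalisation. Strandedness and the handling of multimapping reads are not stated, so reads of overlapping antisense genes cannot be told apart from those of a member. The table held 0 columns outside the 48 labelled libraries.

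Counts of 38 libraries were fitted once with edgeR 4.0.16 in R 4.3.3 (filterByExpr by group, TMM factors, quasi-likelihood test, no covariates), with p-values adjusted over all 19626 genes tested. The SE is the log2 change divided by the square root of F, and 95% intervals span 1.96 SE to each side. A fall was judged on the control mean, a rise on the treated mean, and an interaction or difference between times on the highest group mean. CPM per kb used the union of all annotated exons of a gene in GENCODE v44lift37. Positions and promoters came from RefSeq (GRCh38.p14). The steps were tested on simulated data.

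The members and lists were chosen with earlier results of these data known. Named are all 10 members, up to 3 called genes with the largest change from each other list, and the 3 genes most like CCND1, CDKN1A and CDKN1B. Replicate numbers follow the order of deposition and pair nothing. Alternatives were other sets of libraries, DESeq2 1.42.0, RLE factors, library totals, other filters and thresholds, title runs as a block, smaller fits and leaving out each library.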

Additional observations from a re-analysis of the deposited data

Results flagged for a closer look

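In AII + EGF 24 h replicate 6, CCND1 had 73.8 CPM, far from the 94.2 to 104 CPM of the other 5 libraries of that group. It was the 1 outlier among 70 groups of member values tested by Dixon's criterion, where chance gives about 1 in 20. EGF 24 h replicate 6, of the same title run, also had the lowest CCND1 value of its group, at 68.8 CPM against 96.1 to 109 CPM.

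The response to AII + EGF differed between 24 h and 6 h, by edgeR's test of the difference between times, for CCND1 (−0.68), CDK6 (−0.83), CDKN1A (−0.71) and CDKN2D (0.62). The response to EGF differed for CCND1 (−0.60). Leaving out 1 library, CDK6 and CDKN2D each passed in 9 of 20 fits, and CCND1 under EGF in 5 of 18. With 40 libraries 0 members were called for either difference.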

How the results depend on the processing

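No result reversed. The count of called members moved from 2 to 1 for EGF at 6 h with all 48 libraries, without the near-identical pairs alone (40 libraries), without the 2 doubtful labels alone (46 libraries) and on library totals. For AII + EGF against AII at 6 h it moved from 1 to 0 with all 48 or 40 libraries, to 2 on library totals and to 4 without a fold minimum. For the AII + EGF difference between times it moved from 4 to 1 with all 48 libraries, to 0 with 40 and to 1 in a fit with only the groups compared. For the EGF difference it moved from 1 to 0 with all 48, 40 or 46 libraries, RLE factors, library totals, no filter, the study's filter or only the groups compared, and to 2 at an adjusted p under 0.05. For control at 24 h against 6 h it moved from 1 to 2 on library totals and to 0 with only the groups compared. Without a fold minimum it was 5 for AII + EGF at 6 h and 1 for AII + EGF against AII at 24 h. The cause was not tested. Leaving out 1 library gave 1 to 2 for EGF at 6 h, 1 to 2 for AII + EGF against AII at 6 h, 0 to 1 for AII + EGF at 24 h, 0 to 1 for AII + EGF against AII at 24 h, 1 to 2 for control between times, 2 to 4 for the AII + EGF difference and 0 to 1 for the EGF difference.

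The single values that failed included CDKN1A under EGF at 6 h with 40 libraries (adjusted p 0.0911), the CDKN1A difference between times with all 48 libraries (0.0805), CDK6 under AII + EGF at 6 h on library totals (0.0107) and CDKN1C between times with only the groups compared (0.0137). With title runs as a block 17 of 18 member results that had an adjusted p under 0.01 still had one, and the CDKN2D difference between times did not (adjusted p 0.0195). That block could not be fitted for control between times. Library totals moved the median change of all genes at 6 h by −0.10 under AII + EGF, and the called members there from 3 to 4, with CDK6 lost and CDKN1B and CDKN2C gained as falls. The share of higher genes among all calls then moved from 55.4% to 35.3% for AII + EGF against AII at 6 h (where CDKN1B was called as a fall), 66.7% to 78.9% for EGF at 24 h, 70.9% to 85.6% for control between times, 47.5% to 62.9% for the AII + EGF difference between times and 24.6% to 45.8% for the EGF difference.

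Over these alternatives the counts of all called genes behind the background shares ranged, at 6 h, from 66 to 146 for AII (92 as reported), 121 to 620 for EGF (381), 1604 to 3697 for AII + EGF (2351), 33 to 896 for AII + EGF against EGF (574), 302 to 2834 against AII (1492) and 0 to 168 for the interaction (45). At 24 h they ranged from 2 to 137 for EGF (48), 344 to 1481 for AII + EGF (569), 1 to 73 against EGF (18) and 134 to 654 against AII (285), and between times from 352 to 3106 for control (1320), 1292 to 2775 for AII + EGF (2273), 1 to 568 for EGF (203) and 14 to 68 for AII (27). The lowest count of a member in a library was 78, for CDKN1C.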
